A study of Homo sapiens with 10 samples.

Results

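The deposited list of ANRIL peaks held 375 rows on chromosomes 17 and 19 out of 3227 in all, 199 on chromosome 17 and 176 on chromosome 19. The rule that selects these rows uses the chromosome name alone and no value of a peak. The study recovered DNA with the long non-coding RNA ANRIL from HEK293 cells, an established line from human embryonic kidney, by chromatin isolation by RNA purification and sequencing (ChIRP-seq). Per the labels, each of 2 replicates gave an even-pool and an odd-pool library with oligos against ANRIL, 4 in all, the same layout with oligos against the bacterial gene LacZ as negative control, also 4, and 1 input library, 2 in all. The labels give paired-end reads of 43 bp and 45 M reads for each sample. They call the replicates independent, without saying whether these were separate cultures.

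In ChIRP, biotinylated oligos complementary to an RNA are hybridised to fragmented chromatin and captured on streptavidin beads, so that DNA held near the RNA is recovered with it. ANRIL is transcribed from the CDKN2A/CDKN2B locus on chromosome 9 and is best known for repression of those neighbouring genes through Polycomb complexes. Chromosomes 17 and 19 are both rich in genes. Chromosome 19 also carries clusters of KRAB zinc-finger genes, whose products bind DNA and mostly repress transcription, in many cases at transposable elements.

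The list is a single one for both replicates and both oligo pools, called against LacZ. It holds 1 set of values per peak and none per library, so no spread between replicates and no test across samples can be given for any peak or region. Which replicate's calls the folds, scores and peak names come from is not stated, so they may describe 1 replicate only. Intervals in brackets are exact 95% intervals. They cover the counting of peaks only, and neighbouring peaks are not independent. Peak levels in the LacZ and input libraries were not analysed here, and the read depth at each peak is unknown. Width, fold and score are the authors' values and serve only to describe peaks within the list. Width is the length of the deposited interval, after the peaks of both replicates were intersected. Fold is the ANRIL signal over its local expectation, and score is 10 times the −log10 q, rounded down, with a lowest value of 16. Positions are in hg19 and counted from 1. No gene was assigned to a peak, because no annotation of that build was used here.

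Whole-chromosome density differed little between chromosomes 17 and 19. Chromosome 17 carried 2.45 peaks per Mb (2.12–2.82) over its 81.2 Mb. Chromosome 19 carried 2.98 peaks per Mb (2.55–3.45) over 59.1 Mb. The ratio of chromosome 19 to chromosome 17 was 1.21 (0.986–1.50), an interval that includes equal density. Over lengths without the centromere gaps it was 1.23 (1.00–1.52), with a lower limit just above 1. Over 1 Mb bins that hold a peak it was 1.67 (1.36–2.06). The peaks themselves choose those bins, which drops 21 of 60 bins of chromosome 19 and 10 of 82 of chromosome 17. This last ratio therefore rises by construction, and its interval does not cover that choice. Intervals of the list covered 81.7 kb of chromosome 17, 0.101% of its length, and 99.9 kb of chromosome 19, 0.169%. Counted by genes, the order turned. The GRCh38 gene table lists 1169 protein-coding genes on chromosome 17 and 1451 on chromosome 19, which gave 17.02 peaks per 100 genes on chromosome 17 and 12.1 on chromosome 19, beside 16.1 over the whole list. Zinc-finger symbols that begin with ZNF made up 250 of the protein-coding genes of chromosome 19 (17.2%) and 11 of those of chromosome 17.

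The similar totals came from different layouts. On chromosome 17, the 16 full bins of 5 Mb held 1 to 18 peaks with a median of 13.5, and their variance was 1.52 times their mean. The lowest bin, with 1 peak, ran from 20 to 25 Mb and spans the centromere. The densest ran from 50 to 55 Mb with 18 peaks, or 3.60 per Mb (2.13–5.69), and the 3 fullest bins together held 25.1% of the chromosome's peaks. Outside the bin at the centromere and the first bin, which held 5 peaks, all full bins of chromosome 17 lay between 9 and 18 peaks, and their counting intervals overlapped.

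On chromosome 19, the 11 full bins held 0 to 49 peaks with a median of 7, and their variance was 20.1 times their mean. The bin from 30 to 35 Mb held 44 peaks, the bin from 35 to 40 Mb held 49 and the bin from 40 to 45 Mb held 31. These bins together had 124 peaks, or 70.5% of the chromosome's total. In order along the chromosome, the first 4 bins held 7, 7, 6 and 6 peaks, and the next held 0. The bins from 45 to 50 Mb and from 50 to 55 Mb held 3 and 2 peaks. The fullest bin, at 9.80 peaks per Mb (7.25–13.0), stood above every full bin of chromosome 17 with no overlap of intervals. Both bins from 45 to 55 Mb had fewer peaks than every full bin of chromosome 17 except the 1 at the centromere, although with intervals that overlap those of several.

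**Figure D1:**
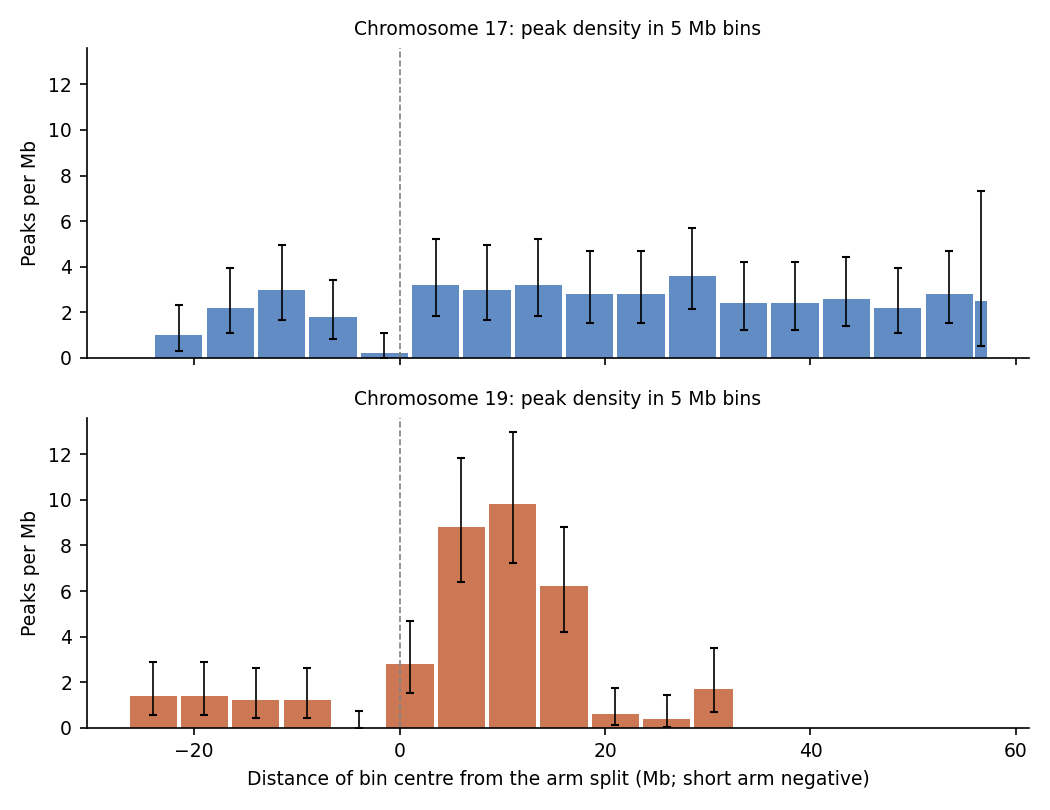
Peaks per Mb in 5 Mb bins of chromosome 17 (upper) and chromosome 19 (lower), placed by the distance of the bin's centre from the split between the arms in Mb, with exact 95% counting intervals as bars. Chromosome 17 runs at 1.00 to 3.60 peaks per Mb outside the bin next to the split, while on chromosome 19 a few long-arm bins reach 6.20 to 9.80 and most others lie under 2.

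By arm, both chromosomes carried more peaks per Mb on the long arm, and the contrast was larger on chromosome 19. With chromosome 17 split at 24 Mb, its short arm had 41 peaks, or 1.71 per Mb (1.23–2.32), and its long arm 158, or 2.76 per Mb (2.35–3.23). The ratio of long to short arm was 1.62 (1.14–2.34). Over 1 Mb bins with a peak, a length chosen by the peaks themselves, it was 1.28 (0.906–1.86), which includes equal density. With chromosome 19 split at 26.5 Mb, its short arm had 26 peaks, or 0.981 per Mb (0.641–1.44), and its long arm 150, or 4.60 per Mb (3.89–5.39). That ratio was 4.69 (3.08–7.41), and its interval did not overlap that of chromosome 17. Arm against arm, the short arm of chromosome 19 lay below that of chromosome 17, with a ratio of 0.574 (0.337–0.962). The long arm lay above, with a ratio of 1.66 (1.32–2.09). Restricted to scores at or above 21, the median of the list, the ratio of long to short arm was 1.57 (1.01–2.52) on chromosome 17. On chromosome 19 it was 6.87 (3.67–14.2), from 93 and 11 peaks, an interval that includes the 4.69 of all peaks.

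Most of the long arm's excess on chromosome 19 lay in 1 block from 28 to 45 Mb. The limits of this block come from an earlier description of the same data, so its contrast with its surroundings is a description and not a finding. Of the 176 peaks, 138 (78.4%) lay in it, although it is 28.8% of the chromosome, and its density was 8.12 per Mb (6.82–9.59). All 17 of its 1 Mb bins held a peak, with a median of 9 and a range of 1 to 16. Of its bins, 13 held 6 or more peaks, against 3 of the 82 bins of chromosome 17. The rest of chromosome 19 held 38 peaks at 0.902 per Mb (0.638–1.24), which is 0.368 times (0.253–0.523) the density of chromosome 17. Without the block, the long arm of chromosome 19 had 0.768 peaks per Mb (0.397–1.34), an interval that overlaps that of the short arm.

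Spacing between neighbouring peaks followed the same layout. The median distance was 278 kb on chromosome 17 and 107 kb on chromosome 19. Within the block it was 83.8 kb, on the short arm of chromosome 19 437 kb, and past 45 Mb 836 kb. The longest interval without a peak on chromosome 17 was 4.86 Mb, between chr17:20833234-20833502 (fold 3.25, score 17) and chr17:25689565-25689931 (fold 3.68, score 24), the peaks nearest the arm split. On chromosome 19 it was 9.73 Mb, between chr19:18625873-18626161 (fold 3.36, score 16) and chr19:28359169-28359660 (fold 3.43, score 26), which are again the peaks nearest the split. Both of these longest intervals include the centromere gap of hg19, so part of their length could hold no peak. A further interval of 4.20 Mb without a peak lay on the long arm of chromosome 19, from 50514669 to 54715125.

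The 3 stretches of chromosome 19 taken here as zinc-finger clusters did not share 1 density. They were taken as 20 to 24 Mb, 35 to 38.5 Mb and 44 to 45 Mb, and their gene content was not checked here. The first, on the short arm, held 0 peaks in 4 Mb, which allows a density of up to 0.750 per Mb at 3 counts. The 4 Mb that follow it, from 24 to 28 Mb, also held 0 peaks, but most of their length is the centromere gap of hg19, which can hold none. The bin before the first stretch, from 15 to 20 Mb, held 6. The second held 33 peaks at 9.43 per Mb (6.49–13.2), and the third held 16 in 1 Mb, at 16 per Mb (9.15–26.0). Joined, the 3 stretches held 49 peaks at 5.76 per Mb, which is 2.30 times (1.62–3.22) the density of the rest of the chromosome. That rest was not checked for further zinc-finger genes, so the ratio does not set zinc-finger sequence against sequence free of such genes.

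Set beside their own surroundings, the long-arm stretches stood out less. Their joint density was 3.03 times (2.11–4.31) that of the rest of the long arm but 1.53 times (1.06–2.19) that of the rest of the dense block, which held 89 peaks at 7.12 per Mb. For the stretch from 35 to 38.5 Mb alone, the ratio to the rest of the block was 1.32 (0.860–1.99). Its density lay near that of the 7 Mb before it, which start at 28 Mb and had 58 peaks or 8.29 per Mb (6.29–10.7), a ratio of 1.14 (0.719–1.77). The 5.5 Mb that follow, up to 44 Mb, had 31 peaks and a density of 5.64 per Mb (3.83–8.0). For the stretch from 44 to 45 Mb alone, the ratio to the rest of the block was 2.25 (1.23–3.85). Several of its peaks lie close together, with spacings of 5.14, 7.44, 1.04, 4.07 and 7.3 kb. Its ratio with rows closer than 10 kb merged was not computed. For all stretches joined against the rest of the chromosome, that merging gave 2.10 (1.45–2.99). Between the second and the third stretch the ratio was 1.70 (0.872–3.17), so their order is not separated by the counting error.

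Counts by 500 kb were lower on both sides of the stretch from 44 to 45 Mb. Its first 500 kb held 7 peaks and its last 500 kb 9, although the last of them ended at 44773929, short of 45 Mb. The 500 kb before the stretch held 1 peak, chr19:43826221-43826876 (fold 3.15, score 18), and the 500 kb before that 0. The 1 Mb after it held 0, and the next peak was chr19:46273382-46273742 (fold 4.15, score 30).

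Close groups of peaks occurred in the dense block of chromosome 19 and not on chromosome 17. Groups of at least 4 separately named peaks within 150 kb numbered 9 on chromosome 19, all inside the block, against 0 on chromosome 17, where no window of that length held more than 3. Such groups were not counted on the other chromosomes. They form more readily where peaks are dense, and whether they exceed what the block's density gives was not tested. The group with the most peaks, chr19:44656118-44773929, had 7 peaks in 118 kb. Their scores in order were 32, 17, 16, 21, 17, 25 and 30, and their folds 3.40, 2.52, 2.49, 2.87, 2.64, 2.83 and 2.97. The next by number of peaks, chr19:36427043-36575013, had 5 peaks in 148 kb, with scores of 36, 20, 17, 19 and 26 and folds of 3.81, 3.14, 3.07, 3.06 and 3.24. In both of these groups the first peak had the highest score and the highest fold. The shortest span among the 9 groups was that of chr19:31532705-31631234, with 4 peaks in 98.5 kb, scores of 22, 27, 18 and 24 and folds of 3.17, 3.55, 2.96 and 3.40.

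Widths differed between the chromosomes, and most clearly in the upper tail. The median width was 363 bp (326–389) on chromosome 17, with a range of 21 to 1595 bp. It was 431 bp (382–452) on chromosome 19, with a range of 48 to 3512 bp, and 341 bp (333–348) on the other chromosomes. Peaks of 1000 bp or more numbered 6 on chromosome 17, or 3.02% (1.11–6.45). On chromosome 19 they numbered 26, or 14.8% (9.88–20.9), and on the other chromosomes 161, or 5.65% (4.83–6.56). All 26 wide peaks of chromosome 19 lay in the block, where they made up 18.8% (12.7–26.4). Of the 38 peaks outside the block, 0 were that wide, which allows a share of up to 7.89% at 3 counts. Another dense region of the list, chromosome X from 62 Mb on, had 11.2% (8.86–14.0) of such peaks, whereas the dense region near the long-arm end of chromosome 1 had 3.76% (1.23–8.56).

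Within the block, width was not even. The median was 490 bp (437–666) from 28 to 35 Mb, 457 bp (383–631) from 35 to 38.5 Mb and 350 bp (273–423) from 38.5 to 44 Mb. In the stretch from 44 to 45 Mb it was 1012 bp (364–1254), and 8 of its 16 peaks reached 1000 bp. Outside the block the medians were 290 bp (258–374) on the short arm and 342 bp (265–443) past 45 Mb, with intervals that overlap that of chromosome 17. The widest peak of chromosome 19 was chr19:30185792-30189303 at 3512 bp, with fold 5.34 and score 75. The next were chr19:38977297-38979663 at 2367 bp (fold 3.02, score 16) and chr19:31584033-31586143 at 2111 bp (fold 2.96, score 18). Thus the widest peak was also among the strongest, while the next were near the lowest score. On chromosome 17 the widest were chr17:34473615-34475209 at 1595 bp (fold 2.89, score 20), chr17:47914139-47915419 at 1281 bp (fold 3.76, score 28) and chr17:53969074-53970283 at 1210 bp (fold 3.58, score 23). The second of these is 1 of 2 rows that carry the same peak name. In all, 3 names on chromosome 17 and 1 on chromosome 19 were split over 2 rows. The narrowest intervals, of 21 and 39 bp on chromosome 17 and 48 bp on chromosome 19, may likewise be parts of wider called peaks, to which fold and score would then belong. Which processing step split or trimmed an interval was not tested.

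**Figure D2:**
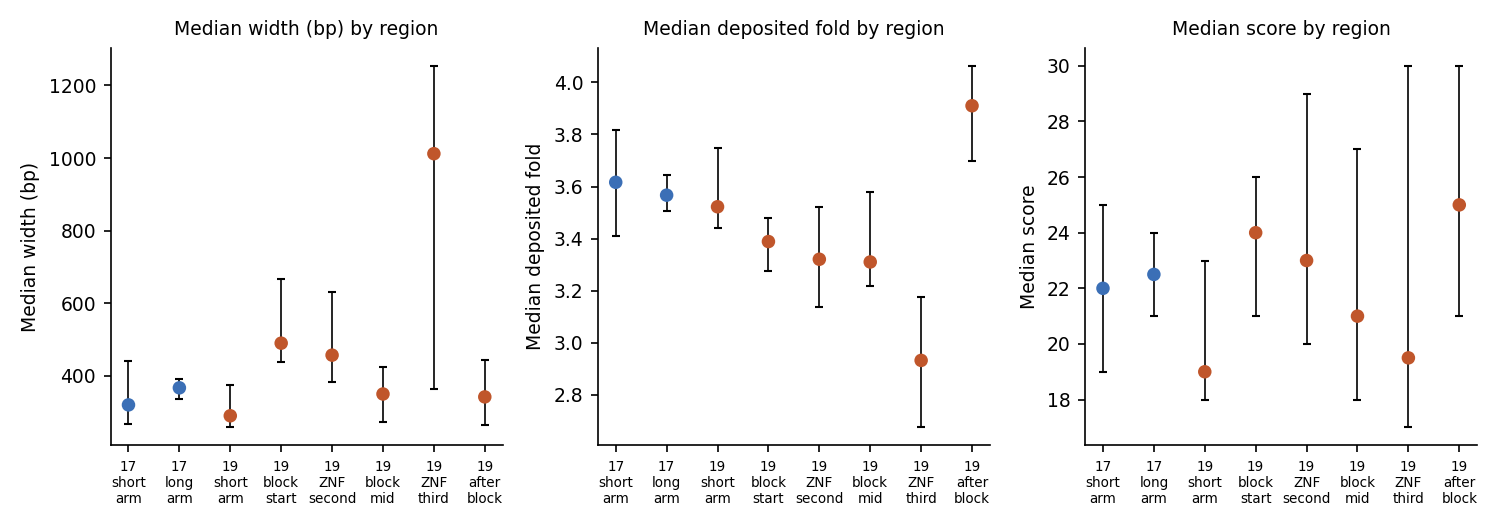
Median width in bp (left), median fold (middle) and median score (right) of peaks by region of chromosome 17 (blue) and chromosome 19 (orange), with 95% order-statistic intervals as bars. On chromosome 19 the regions are the short arm, the 4 consecutive pieces of the dense block, with both long-arm zinc-finger stretches marked ZNF, and the end of the long arm, and the third zinc-finger stretch has the largest median width, 1012 bp, and the lowest median fold, 2.93.

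Fold ran slightly lower on chromosome 19. Its median was 3.58 (3.51–3.64) on chromosome 17, 3.39 (3.32–3.47) on chromosome 19 and 3.47 (3.46–3.49) on the other chromosomes. The lower value came from the block, with 3.32 (3.24–3.38), and not from the short arm, with 3.52 (3.44–3.75), or the 12 peaks past 45 Mb, with 3.91 (3.70–4.06). Within the block the stretch from 35 to 38.5 Mb had a median of 3.32 (3.14–3.52) and the stretch from 44 to 45 Mb one of 2.93 (2.67–3.18). Folds under 3 numbered 4 on chromosome 17, or 2.01% (0.550–5.07), and 19 on chromosome 19, or 10.8% (6.63–16.3). Of those 19, 9 lay among the 16 peaks of the stretch from 44 to 45 Mb.

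The same order held among peaks of like score. At scores of 16 to 18, the median fold was 3.30 (3.25–3.36) over 56 peaks of chromosome 17 and 3.10 (3.04–3.20) over 53 of chromosome 19. It was 3.05 (3.0–3.12) over 41 peaks of the block, 3.40 (3.20–3.47) over 12 outside it, and 2.67 (2.49–3.05) over 7 of the stretch from 44 to 45 Mb. On the other chromosomes, 1010 peaks of those scores had a median of 3.24 (3.21–3.25). The dense regions of chromosomes 1 and X had 3.10 (3.01–3.13) and 3.06 (3.03–3.08), so the low fold at a given score was shared by these dense regions and was not particular to chromosome 19.

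Across the 9 bins of 5 Mb with at least 3 peaks on chromosome 19, density and median fold had a Spearman's rho of −0.72, and density and median width one of 0.59. Across 15 such bins of chromosome 17, the values were 0.23 and −0.094. These are descriptions, since bins of 1 chromosome share their libraries and the density on chromosome 19 rests on 1 block.

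**Figure D3:**
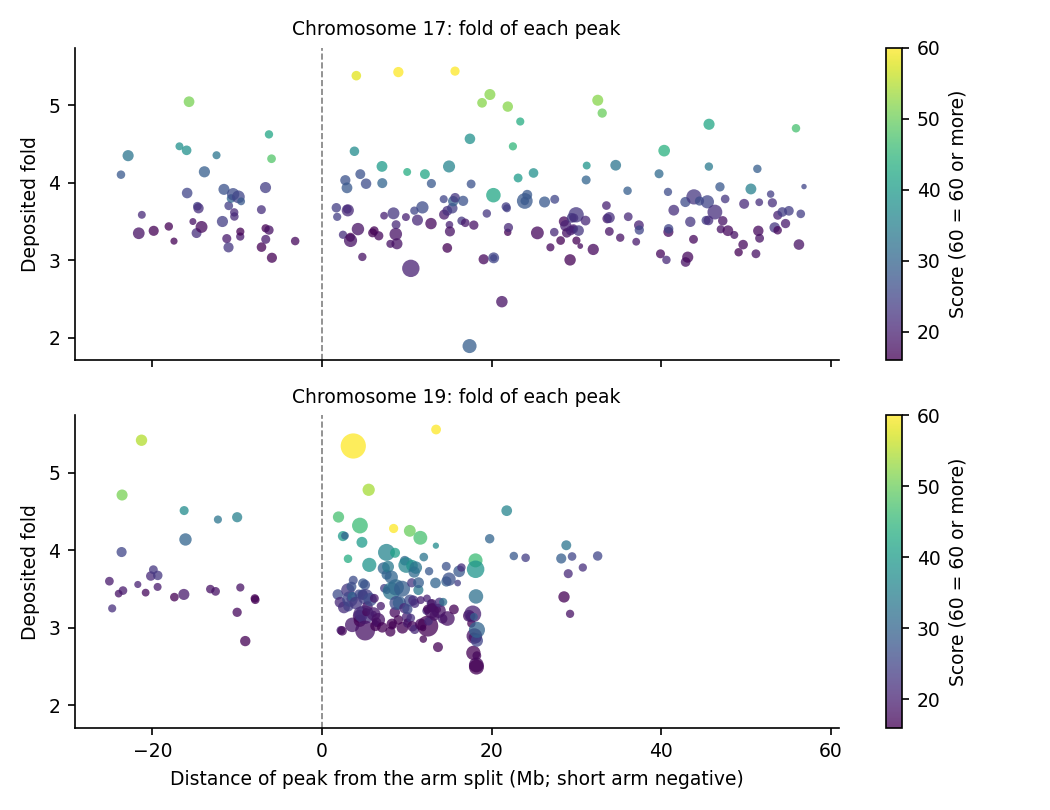
Deposited fold of each peak against its distance from the arm split in Mb on chromosome 17 (upper) and chromosome 19 (lower), where colour gives the score, with 60 and above in 1 colour, and point size grows with width. Peaks of chromosome 17 spread over both arms between folds of 1.89 and 5.44, while on chromosome 19 most points lie in 1 band of the long arm, with the lowest folds, down to 2.49, at that band's far edge.

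Scores had a median of 22 (21–24) on both chromosomes, and 21 (20–21) elsewhere. Scores of 30 or more made up 37 peaks (18.6%, 13.4–24.7) on chromosome 17 and 45 (25.6%, 19.3–32.7) on chromosome 19, beside 16.8% (15.4–18.2) on the other chromosomes. The intervals of chromosomes 17 and 19 overlap. Scores of 50 or more numbered 9 on chromosome 17 and 7 on chromosome 19 among 68 in the list. Of the 7 on chromosome 19, 5 lay in the block and 2 on the short arm, which held 78.4% and 14.8% of all its peaks. On chromosome 17, 8 of the 9 lay on the long arm, which held 79.4% of all its peaks. These small counts were not tested against those shares.

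The highest score on chromosome 17 was 64, at chr17:39687250-39687587 (338 bp, fold 5.44), and 22 peaks of the list scored above it. Next came chr17:33003872-33004330 with score 61 and fold 5.43, and chr17:28045998-28046378 with score 58 and fold 5.38. A score of 52 was shared by 4 peaks, and ties were ordered by fold. They were chr17:43800920-43801469 (fold 5.14), chr17:56521078-56521629 (fold 5.06), chr17:42874854-42875246 (fold 5.03) and chr17:45908185-45908662 (fold 4.98). All 7 of these peaks lay on the long arm, which held 79.4% of the chromosome's peaks. Their widths were 338 to 552 bp.

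On chromosome 19 the highest score was 78, at chr19:39952495-39952895 (401 bp, fold 5.56), and 8 peaks of the list scored above it. The second, with 75, was the 3512 bp peak at chr19:30185792-30189303. Then came chr19:34945979-34946316 with score 60 and fold 4.28, chr19:5210708-5211303 with score 55 and fold 5.42, and chr19:32002599-32003315 with score 54 and fold 4.78. Of these 5 peaks, 4 lay in the block, which held 78.4% of the chromosome's peaks, and the fourth lay on the short arm. The short-arm peak reached a lower score than the peak at 34945979 at a higher fold. None of the 5 lay inside a zinc-finger stretch, where 27.8% of the chromosome's peaks lay. The highest scores there were 50 in the second stretch and 46 in the third.

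The lowest fold on chromosome 17 was 1.89, at chr17:41400089-41401077, whose score was nevertheless 29. It was followed by 2.46 at chr17:45213946-45214555 (score 18) and by the widest peak of the chromosome, at 2.89. The lowest 3 folds of chromosome 19 were all in the third zinc-finger stretch. They were 2.49 at chr19:44712278-44713429 (score 16), 2.52 at chr19:44699882-44701001 (score 17) and 2.64 at chr19:44760222-44760517 (score 17). All of them belong to the group of 7 peaks described above. Spearman's rho between fold and score, over all peaks, was 0.86 on chromosome 17 and 0.79 on chromosome 19, given as a description.

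Peak names carry numbers that run in order along both chromosomes, so, if they were given at peak calling, they bound how many peaks had been called in a region before the intersection and the score filter. The calls counted may be those of 1 replicate only. On chromosome 17, 2884 to 2908 peaks had been called, of which 6.74% to 6.80% stayed in the list. Chromosome 19 had 1746 to 1814 called peaks, of which 9.65% to 10.0% stayed, beside at most 5.68% over the whole list. Before filtering, chromosome 17 was thus the denser of the pair, with 35.5 to 35.8 called peaks per Mb against 29.5 to 30.7. In the list the ratio of chromosome 19 to chromosome 17 was 1.21 (0.986–1.50), which includes equal density. With fewer called peaks per Mb on chromosome 19, its larger kept share follows from that ratio by arithmetic.

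Both the number called and the share kept varied with region on chromosome 19. The short arm had 14.5 to 18.9 called peaks per Mb, with 5.19% to 6.79% kept. The block had 66.1 to 71.9 per Mb, with 11.2% to 12.2% kept, and the end past 45 Mb had 9.98 to 13.4 per Mb, with 6.35% to 8.51% kept. The block was therefore already dense among called peaks, and its share kept was higher as well. In the stretch from 35 to 38.5 Mb the values were 70.9 to 74.0 per Mb and 12.7% to 13.3%, and in that from 44 to 45 Mb 81.0 to 107 per Mb and 14.95% to 19.8%. The stretch from 20 to 24 Mb lies within the 9.73 Mb without a listed peak, where 84 peaks had been called and none kept. On chromosome 17 the arms differed less, with 28.3 to 30.2 per Mb on the short arm and 37.9 to 38.8 on the long arm. Read depth, copy number and mappability along the chromosomes were not analysed here, and their part in these densities was not tested.

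**Figure D4:**
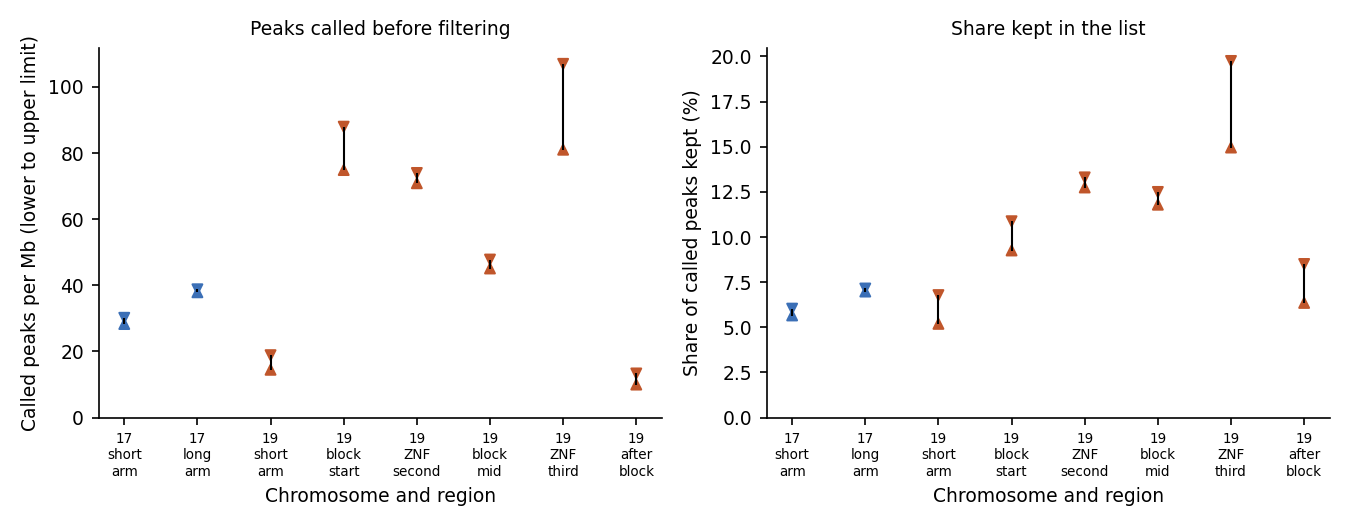
Lower and upper limits, from the numbers in peak names, on the peaks called per Mb before filtering (left) and on the percentage of them kept in the list (right), by region of chromosome 17 (blue) and chromosome 19 (orange). The pieces of the dense block of chromosome 19 lie highest in both panels, and the short arm and the end of the long arm lie lowest in called peaks per Mb.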

How the data were processed

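Per the labels' protocols, DNA eluted from ANRIL, LacZ and input material of HEK293 cells was sequenced. Bowtie2, MACS2, deepTools, bedtools and the build hg19 were used per the submitters' processing notes, with versions and parameters not given in the sources used here. As its title says, the deposited list intersects both replicates, with a score filter of 15 and regard to blacklisted regions. The title does not give the order of these steps. Its columns, read from MACS2's order and the values, are position, score, a fold (ratio) and −log10 p and q, all as the authors deposited them. Score equalled 10 times −log10 q rounded down in all 3227 rows.

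Counts per region were computed from it, with exact Poisson intervals for densities and conditional exact binomial intervals for ratios. Shares have Clopper-Pearson intervals and medians order-statistic intervals, all at 95%. All but the Clopper-Pearson intervals were checked on simulated counts and values drawn independently. That check does not cover clustered peaks such as those of chromosome 19. A limit printed for a count of 0 uses 3 counts. Chromosome lengths are general knowledge of hg19. Positions were read as starting from 0 and printed from 1. Peaks named, per chromosome, are the 5 highest scores (ties by fold), the 3 widest, the 3 lowest folds, those nearest the arm split and the 2 groups with the most peaks among those of at least 4 within 150 kb. Stretch edges, the group of shortest span, the other peaks tied at score 52, split pieces and the narrowest peaks were named after their values were seen. The members, stretches and rules were chosen with earlier results of these data known. The 20052 protein-coding genes of the GRCh38 table served for counts per chromosome only. Alternatives were a higher score, merged rows, other lengths, widened or partial stretches and leaving out the densest bin or the block. The tools were scipy 1.17.1, pandas 2.3.3, numpy 2.4.6 and matplotlib 3.10.9 under Python 3.11.15.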

Additional observations from a re-analysis of the deposited data

How the results depend on the processing

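Of 62 recomputed values, 43 stayed within the interval of the main value, 17 moved outside it and 2 were counted as reversed. A ratio was counted as reversed only where its main interval excluded 1. The ratio of chromosome 19 to chromosome 17 could therefore not be counted so. Per protein-coding gene and without the block it fell below 1, and both values stand among the 17. No paired analysis was possible because both replicates are intersected in 1 list without values per library, and for that reason no replicate could be left out. With scores at or above 21, density fell to 1.51 per Mb on chromosome 17 and 1.76 on chromosome 19, median fold rose to 3.78 and 3.64 and median score to 26 and 28, as fewer and stronger peaks give by construction. At scores of 16 to 18 the median folds were 3.30 and 3.10. Over 1 Mb bins with a peak, chromosome 19 had 4.62 per Mb and the ratio to chromosome 17 was 1.67. Both rise by construction, since the peaks choose the bins and more of chromosome 19 is left out. The settings that follow, and the removal of centromere gaps, were chosen after seeing the data, except the short-arm stretch. Per protein-coding gene the ratio was 0.713. Without the block from 28 to 45 Mb, chromosome 19 had 0.902 per Mb, a ratio of 0.368 to chromosome 17, a median width of 294.5 bp and a median fold of 3.67. Its arm ratio, counted as reversed, was then 0.783 (0.360–1.61), an interval that includes equal density. The zinc-finger ratio was 0 for the short-arm stretch against its own arm, 1.53 for the long-arm stretches against the rest of the block and 1.32 for the second stretch alone. Without the centromere gaps, which are general knowledge of hg19, the ratio of chromosome 19 to chromosome 17 was 1.23. The causes of these shifts were not tested. The counts limit what can be separated, above all in the 12 peaks past 45 Mb and the 16 of the third stretch.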
